A study of Mus musculus with 6 samples.

Results

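The AP-1 family and the partners of JDP2 were described by 10 genes, Jdp2, Fos, Fosb, Fosl2, Jun, Junb, Jund, Batf, Batf3 and Atf3, chosen by name, and all 10 were found among the 34245 genes of the RNA-seq table. RNA came from 3 peripheral T-cell lymphomas (PTCL) that arose in lymph nodes of terminally sick Dnmt3b+/- mice of the FVB/N strain. These mice carry a germline inactivation of a single Dnmt3b allele. The labels describe the 3 tumors as independent samples, here called tumors 1, 2 and 3, and give no age. Bisulfite sequencing libraries, control T cells and Dnmt3a-deficient tumors were not analysed here. With a single group of 3 tumors there is no comparison between groups and no p-value, so differences between tumors are given as values with the counting error of their reads.

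AP-1 is a dimer of basic leucine zipper proteins. JUN proteins pair with each other or with FOS proteins, which cannot pair among themselves, and BATF proteins pair with JUN and bind composite sites next to IRF4 in lymphocytes. JDP2 and ATF3 can also pair with JUN proteins, and JDP2 dimers mostly repress AP-1 targets, in part by recruiting histone deacetylase. In T cells AP-1 is activated downstream of the T-cell receptor through MAP kinases, where it acts with NFAT.

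The label of a peripheral T-cell lymphoma was first set against markers. Levels are in FPKM, fragments scaled to exon length and library depth, and the libraries held 19981303, 12307514 and 13499793 reads on genes in tumors 1, 2 and 3. All 8 T-cell markers were above 0.2 FPKM in every tumor, as were 36.7% of all genes, and summed to 1197 FPKM in tumor 1, and to 769 and 1228 in the others. Cd8b1, a chain of the CD8 co-receptor, was the most abundant, with 435, 166 and 443 FPKM in tumors 1, 2 and 3. Cd4 was lower, with 28.4, 4.28 and 8.22 FPKM. The markers did not share an order of tumors. Tumor 2 was the lowest for 4 of the 8, against 38.3% of genes with a mean of at least 1 FPKM. It was the highest for 3, Cd3e, Cd3g and Cd5, against 33.7% of such genes. Cd3e, for one, had 56.4, 78.1 and 65.3 FPKM. Markers of B cells, macrophages and dendritic cells were also present in every tumor. In such bulk samples fewer cells of a type and less RNA per cell cannot be told apart.

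By mean FPKM the 10 genes ran from Junb, Jund, Batf and Jun through Fosl2, Fos and Jdp2 to Batf3, Atf3 and Fosb. Of the 10, 8 were above 0.2 FPKM in every tumor, against 36.7% of all genes, the exceptions being Atf3 and Fosb. Of the 10, 3 had a mean under 1 FPKM, Batf3, Atf3 and Fosb. The 2 highest genes lay above at least 97.2% of all genes by mean, and Fosb above 56.4%. For 8 of 9 pairs of neighbours in this order the ranges over the tumors overlapped, and only Jund and Batf were apart. FPKM is scaled to exon length, so these levels can be compared between genes.

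**Figure D1:**
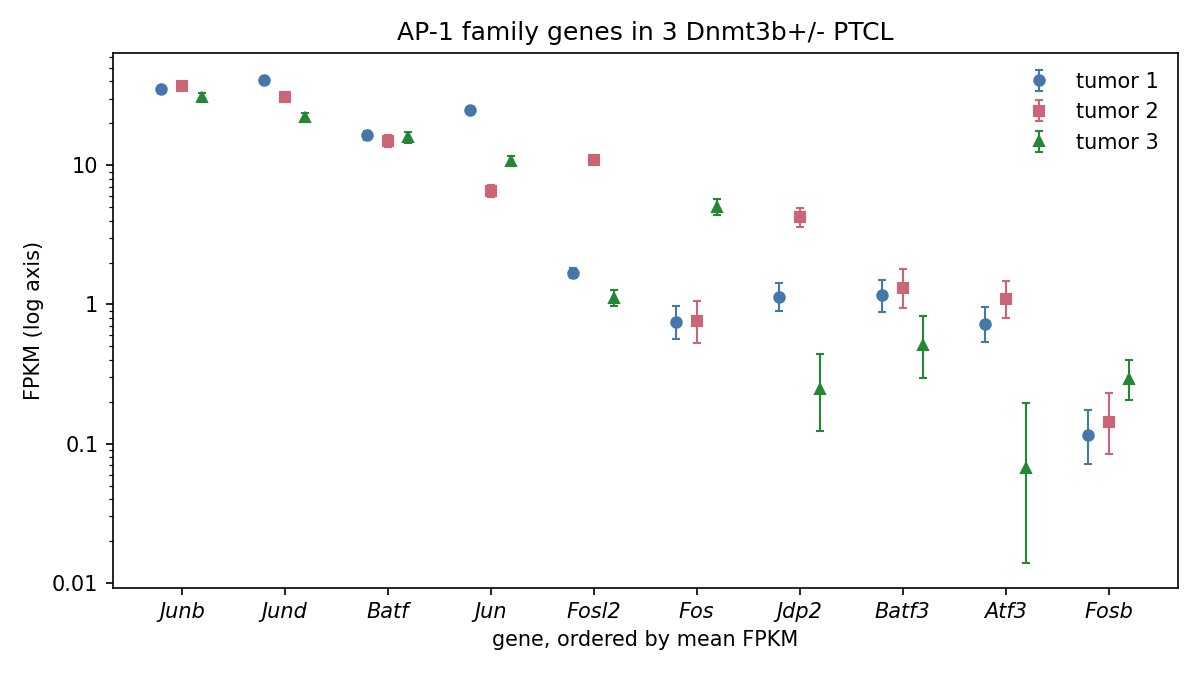
FPKM of each gene (log axis) in tumors 1, 2 and 3, ordered by mean. Bars are exact Poisson 95% intervals of the reads, which cover counting error only. Junb, Jund and Batf sit close together over the tumors, while Fosl2, Fos, Jdp2 and Atf3 each have a tumor that stands apart.

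Jdp2 (ENSMUSG00000034271), the repressive partner of JUN, is a plus-strand gene of chromosome 12 (mm10, 85599027 to 85639878). Its level was 4.22 FPKM in tumor 2, above 1.14 in tumor 1 and 0.247 in tumor 3. On the recovered reads, the 95% interval was 0.894 to 1.42 FPKM in tumor 1, 3.61 to 4.90 in tumor 2 and 0.123 to 0.441 in tumor 3, and no interval overlapped another. Tumor 2 was 3.71 times tumor 1 (95% interval 2.82 to 4.94) and 17.1 times tumor 3 (9.33 to 34.9), where 11 reads were counted. Tumor 1 was 4.61 times tumor 3, so all 3 tumors differed beyond counting error.

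Atf3 (ENSMUSG00000026628), a stress-induced gene whose protein resembles JDP2 in its zipper, lies on chromosome 1 from 191170296 to 191218039. It had the same order of tumors, with 0.725, 1.10 and 0.0671 FPKM, resting on 48, 45 and 3 reads. Tumor 2 was 1.52 times tumor 1, with an interval of 0.988 to 2.33 that includes 1. Tumor 3 was lowest, and the ratio of tumor 2 to it was 16.4, with a wide interval of 5.27 to 82.6 since it rests on 3 reads. On average Atf3 had 0.631 ± 0.523 FPKM (SD, n = 3) and 0.396 without tumor 2. Jdp2 and Atf3 thus shared their lowest tumor, while Jdp2 but not Atf3 separated tumor 2 from tumor 1 beyond counting error.

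Within the FOS family each tumor had its own profile. Fos (ENSMUSG00000021250), the immediate early gene that gives the family its name, starts upstream of Jdp2 on chromosome 12, from 85473890 to 85477273. It had low values of 0.747 and 0.762 FPKM in tumors 1 and 2 and 5.02 FPKM in tumor 3, on 54, 34 and 245 reads. Tumors 1 and 2 differed by less than their counting error, and tumor 3 was 6.58 times tumor 2 (95% interval 4.58 to 9.72). The mean of 2.17 ± 2.46 FPKM (SD, n = 3) rests on tumor 3, and was 0.755 without it. Tumor 3, which had the most Fos, had the least Jdp2: Jdp2 was 1.52, 5.54 and 0.0492 times Fos in FPKM in tumors 1, 2 and 3.

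Fosl2 (ENSMUSG00000029135), which encodes FRA2, a FOS protein without the strong activation domain of FOS, is on chromosome 5 from 32135801 to 32157842. Tumor 2 stood at 11.0 FPKM on 2013 reads, and tumors 1 and 3 at 1.69 and 1.12 FPKM on 502 and 225 reads. Tumor 2 was 6.50 times tumor 1 (95% interval 5.89 to 7.18) and 9.80 times tumor 3 (8.53 to 11.3). The mean of 4.59 ± 5.53 FPKM (SD, n = 3) was 1.40 without tumor 2. Of the 2 genes with tumor 2 at least 2 times the next, Fosl2 and Jdp2, Fosl2 has more reads. Fosb (ENSMUSG00000003545, chromosome 7, 19302696 to 19310051), another immediate early gene, was low throughout, with 0.115, 0.144 and 0.293 FPKM from 22, 17 and 38 reads. Like Fos it was highest in tumor 3, which was 2.04 times tumor 2, with an interval of 1.12 to 3.86.

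Sums here take in only the 10 genes, and leave out the relatives Fosl1, with 0.458, 0.340 and 0.197 FPKM, and Batf2, with 1.34, 0.418 and 0.325 FPKM. Summed over Fos, Fosb and Fosl2, the FOS genes reached 2.55, 11.9 and 6.43 FPKM in tumors 1, 2 and 3. Fosl2 made up 66.2% of this sum in tumor 1 and 92.4% in tumor 2, but 17.4% in tumor 3. Fos made up 29.3%, 6.42% and 78.0% in the same order. Tumors 2 and 3 thus both had more FOS family transcript than tumor 1, from different genes.

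The JUN family was the most abundant and, apart from Jun, varied less. Junb (ENSMUSG00000052837), a JUN protein with weaker activation than JUN, was at 35.4, 37.1 and 31.0 FPKM in tumors 1, 2 and 3, resting on 1970, 1273 and 1165 reads. The mean came to 34.5 ± 3.15 FPKM (SD, n = 3), and the ratio of highest to lowest tumor was 1.20. Tumor 2 was highest as deposited, but tumor 1 was highest with each tumor rescaled to the same sum or to its Cd3 genes. The table holds 2 entries of Junb on chromosome 8, and the one used, from 84976910 to 84978718, had all the reads.

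Jund (ENSMUSG00000071076, chromosome 8, 70698949 to 70700616), a JUN protein abundant in resting cells, was at 41.1, 30.8 and 22.2 FPKM in the same order, resting on 2104, 975 and 768 reads. Tumor 1 was 1.85 times tumor 3, with a 95% interval of 1.70 to 2.01. Jun (ENSMUSG00000052684, chromosome 4, 95049034 to 95052222), the founding member and a target of JNK, varied most in the family, with 25.1, 6.51 and 10.8 FPKM from 2460, 394 and 713 reads. Tumor 1 was 2.33 times tumor 3 (95% interval 2.14 to 2.54) and 3.85 times tumor 2 (3.46 to 4.30). Without tumor 1, the mean of 14.1 ± 9.74 FPKM (SD, n = 3) was 8.64. Tumor 2, the tumor with the most Jdp2 and Fosl2, had the least Jun.

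Jun and Jund were highest in tumor 1, in which many genes were higher. Median-of-ratios factors of 1.08, 0.974 and 0.951, or 0.12, -0.04 and -0.07 on the log2 scale, describe this shift. After division by them, the ratio of highest to lowest tumor was 3.46 for Jun and 1.62 for Jund, both still highest in tumor 1. Scalings by summed FPKM or by the Cd3 genes, both lowest in tumor 1, moved the ratios the other way, to 4.23 and 5.0 for Jun and to 2.20 and 2.57 for Jund, which then passes a ratio of 2.

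Batf (ENSMUSG00000034266, chromosome 12, 85686669 to 85709087), the lymphocyte gene whose protein pairs with JUN proteins beside IRF4, was the steadiest of the 10. The 3 tumors had 16.4, 14.9 and 15.9 FPKM, resting on 709, 397 and 464 reads, with a mean of 15.7 ± 0.776 (SD, n = 3). The ratio of highest to lowest tumor was 1.10, with a 95% interval of 0.974 to 1.25, so no difference was detectable at this depth on the deposited scale. With scaling to the Cd3 genes the ratio was 1.43, outside that interval. Which tumor is highest is not fixed: it was tumor 1 as deposited and tumor 3 with median-of-ratios factors. Batf3 (ENSMUSG00000026630, chromosome 1, 191097847 to 191108945), a relative used by dendritic cells and activated T cells, had 1.16, 1.32 and 0.512 FPKM from 57, 40 and 17 reads. Tumors 1 and 2 overlapped in counting error, and tumor 2 was 2.58 times tumor 3 (95% interval 1.43 to 4.85). With scaling to the Cd3 genes, tumor 1 rather than tumor 2 was the highest for Batf3.

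Of the 10 genes, 7 had a highest tumor at least 2 times the lowest, against 34.4% of the 11197 genes with a mean of at least 1 FPKM. The 3 that did not were Junb, Jund and Batf, which are also the 3 most abundant. The median ratio was 3.22 over the 10 genes and 1.68 over the 11197. Of the 7, Batf3, Atf3 and Fosb have a mean under 1 FPKM and so lie outside the genes behind that share, and low genes vary more by counting alone. The 7 members with a mean of at least 1 FPKM had 4 such genes, Jun, Fosl2, Fos and Jdp2. Fos reached that mean only through tumor 3 and Jdp2 only through tumor 2, with 0.755 and 0.691 FPKM without them. The count also rests on tumor 3: without it, 3 of the 10 genes had a ratio of at least 2, against 25.2% of the 11197 genes, while it was 6 without tumor 1, against 16.2%, and 6 without tumor 2, against 17.6%. A pseudocount of 1 FPKM, which damps low genes, left 4, against 23.6% of the 11197.

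A single tumor at least 2 times the next was found for 5 of the 10 genes, against 12.8% of the 11197. This was tumor 1 for Jun, against 6.62% of these genes, and tumor 2 for Jdp2 and Fosl2, against 5.54%. Fos and Fosb had it in tumor 3, where 0.670% of the 11197 genes did. For Fosb, whose mean is under 1 FPKM, the counting interval reaches below 2. The ratio of Jdp2 was reached by 3.39% of the 11197 genes, that of Atf3 by 3.53%, that of Fosl2 by 5.05% and that of Fos by 6.80%. Atf3 has a mean under 1 FPKM, so it lies outside these genes, and its ratio rests on 3 reads in tumor 3. With a pseudocount of 1 FPKM the ratio of Atf3 was 1.97 and that of Jdp2 4.19. At the other end, 96.8% of the 11197 genes had a ratio at least as large as Batf.

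**Figure D2:**
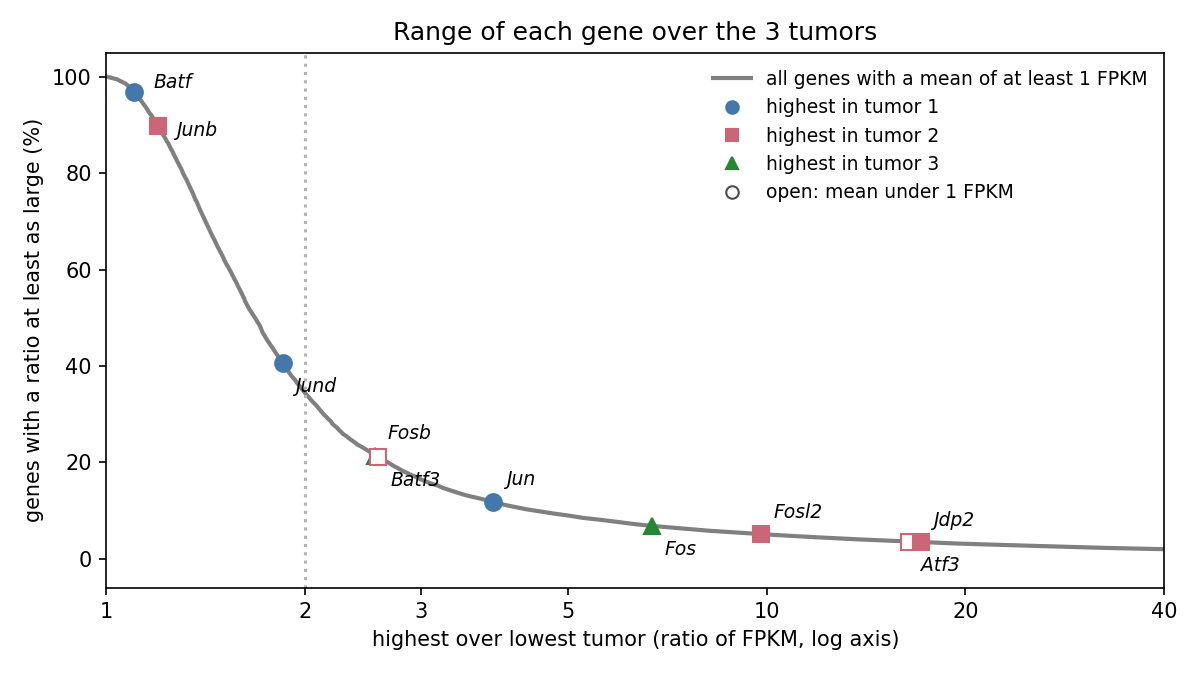
Ratio of the highest to the lowest tumor (log axis) against the share of the 11197 genes with a mean of at least 1 FPKM whose ratio is as large (grey curve). Symbols give the tumor with the highest value and open symbols a mean under 1 FPKM. Batf and Junb lie at the top left, Fos, Fosl2, Jdp2 and Atf3 at the bottom right, past the dotted line at a ratio of 2.

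The order of the tumors was also tallied. Jdp2, Fosl2, Atf3, Batf3 and Junb ran tumor 2, tumor 1, tumor 3 from high to low, 5 of 10 genes, and 16.9% of the 11197 genes did. Only for Jdp2 and Fosl2 was tumor 2 above tumor 1 beyond counting error. The count depends on the scale: it was 4 with each tumor rescaled to the same sum, without Junb, and 3 with scaling to the Cd3 genes, without Junb and Batf3, against 19.7% and 16.4% of the genes. Fos and Fosb ran tumor 3, tumor 2, tumor 1, as did 7.56%, and with scaling to the Cd3 genes tumors 1 and 2 changed places for both. Tumor 3 was the lowest for 6 of the 10 genes on the deposited scale, against 37.4% of the 11197. This share also depends on the scale. The order tumor 1, tumor 2, tumor 3, a part of it, held 20.5% of the 11197 genes as deposited. It held 30.8% with each tumor rescaled to the same sum, 37.7% with Cd3 scaling and 14.4% with median-of-ratios factors.

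Summed over all 10 genes, the family reached 124, 108 and 87.1 FPKM in tumors 1, 2 and 3. JUN family transcripts were 82.2%, 69.0% and 73.4% of this sum. BATF family transcripts were 14.2%, 15.0% and 18.8%, and the FOS family 2.06%, 11.0% and 7.38%. Jdp2 and Atf3 together made up 1.51%, 4.94% and 0.360%. In every tumor JUN family transcripts outnumbered those of all their partners in this list, and the share of FOS family transcripts was lowest in tumor 1.

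Relative to the summed FPKM of Jun, Junb and Jund, the pool with which JDP2 can pair, Jdp2 amounted to 1.12%, 5.67% and 0.386% in tumors 1, 2 and 3. The mean was 2.39% ± 2.86 (SD, n = 3), and 0.752% without tumor 2. The FOS family was 2.51%, 15.9% and 10.1% of the same pool. These are ratios of transcripts, and protein was not measured.

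**Figure D3:**
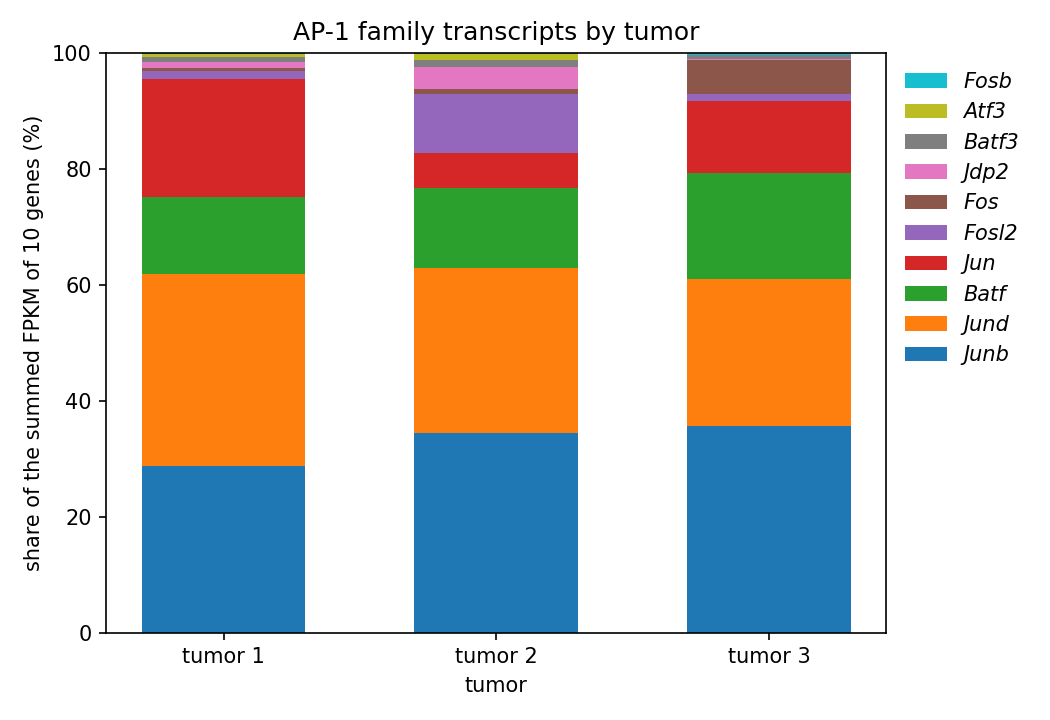
Share of each gene in the FPKM summed over the 10 genes (percent, stacked bars) in tumors 1, 2 and 3. Junb, Jund, Batf and Jun fill most of each bar, and the visible differences are Jun in tumor 1, Fosl2 and Jdp2 in tumor 2 and Fos in tumor 3.

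In 2 places the genes are neighbours on the chromosome. Fos, Jdp2 and Batf lie in this order within 235 kb of chromosome 12, all on the plus strand, with 2 other genes starting between them. The 3 genes had 3 different profiles: Fos was high in tumor 3, Jdp2 in tumor 2, and Batf was even. Between them, AC145740.1 had no read in any tumor. AC115037.1, on the opposite strand, overlaps the start of Jdp2 and had 7, 7 and 0 reads in tumors 1, 2 and 3, against 75, 172 and 11 for Jdp2. Whether reads were counted by strand is not given in the sources used here, so reads in the overlap cannot be assigned with certainty. Batf3 and Atf3 lie within 120 kb of chromosome 1, on opposite strands, and both were lowest in tumor 3, while the genes between them, Gm38161 and Fam71a, had no read.

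**Figure D4:**
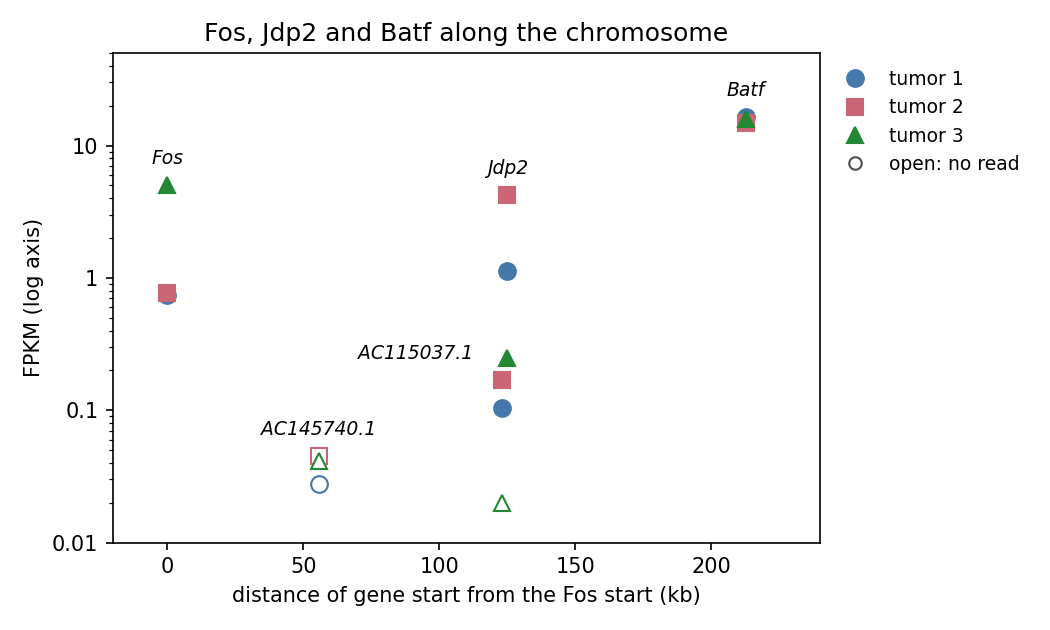
FPKM (log axis) of Fos, Jdp2, Batf and the 2 genes between them against the distance of each gene start from the Fos start in kb. Open symbols mark genes without a read, which hold the FPKM of 0.9 read. Fos is highest in tumor 3, Jdp2 in tumor 2, and the 3 tumors coincide at Batf.

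The sequence upstream of these 3 neighbours is shown because Dnmt3b methylates cytosine in CpG, and they differ in how many CpG they hold. Sequences are from RefSeq (GRCm38.p6), plus strand, 5′ to 3′, ending before the gene start in the deposited table, with each CpG in capitals. Fos is shown for chr12:85473640-85473889, Jdp2 for chr12:85598855-85599026 and Batf for chr12:85686470-85686668.
Fos: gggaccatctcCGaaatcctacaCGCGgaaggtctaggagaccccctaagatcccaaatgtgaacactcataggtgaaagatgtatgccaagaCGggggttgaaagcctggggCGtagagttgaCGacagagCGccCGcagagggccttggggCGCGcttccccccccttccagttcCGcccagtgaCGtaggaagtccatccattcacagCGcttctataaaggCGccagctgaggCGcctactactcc
Jdp2: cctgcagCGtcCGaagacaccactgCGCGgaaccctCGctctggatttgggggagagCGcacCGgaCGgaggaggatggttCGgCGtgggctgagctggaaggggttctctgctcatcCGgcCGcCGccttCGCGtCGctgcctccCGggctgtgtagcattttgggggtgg
Batf: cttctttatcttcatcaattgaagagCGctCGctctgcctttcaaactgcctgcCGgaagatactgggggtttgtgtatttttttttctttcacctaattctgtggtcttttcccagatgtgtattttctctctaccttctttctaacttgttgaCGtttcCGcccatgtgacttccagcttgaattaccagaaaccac
The stretch of Fos holds 15 CpG in 250 bases, that of Jdp2 17 in 172 bases and that of Batf 5 in 199 bases. G and C make up 58.4%, 67.4% and 42.2% of them. Methylation of these stretches was not analysed here.

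All 10 genes were matched to RefSeq promoters, with 12 windows of 250 bases before a start, since Jdp2 has 3. The median was 19.5 CpG over the 12 windows and 6 over all 32851 windows, and 7 of the 12 were above the upper quartile of 16. The 3 windows of Jdp2 hold 29, 26 and 12 CpG, that of Batf3 27, Atf3 24, Fosl2 23, Junb 20, Fosb 19, Fos and Jun 15 each, Batf 7 and Jund 3. The RefSeq start need not be that of the deposited table: for Jund it lies 1.21 kb before the start used here, and for Atf3 34.7 kb inside the gene. The full AP-1 site TGACTCA, on both strands, was in none of the 12 and in 4.46% of all windows. The cyclic AMP response element TGACGTCA was in none and in 1.55% of all. Its first letters TGACG, searched on both strands and contained in the full element, were in windows of 6 genes, Fos, Fosb, Junb, Batf, Atf3 and Jdp2, and in 17.8% of all. Fos had 2 of them, and was the only one of the 10 with TATAAA, which 12.4% of all windows hold. A CArG box, the element of serum response factor, was in none and in 1.47% of all. No match says only that these letters are not in this window.

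Markers of other cell types differed between the tumors alongside several of the genes. The 8 pancreatic acinar markers had the order of Jdp2, Fosl2 and Atf3, 8 of 8 against 16.9% of the 11197 genes, with sums of 87.0, 440 and 0.657 FPKM in tumors 1, 2 and 3. Ctrb1 was the most abundant, with 33.9, 198 and 0.0494 FPKM, and 3 of the 8, Ctrb1, Cpa1 and Clps, had no read in tumor 3. Of 8 stromal markers, 5 had this order, again against 16.9%, and the sums were 23.6, 53.7 and 5.43 FPKM. Pecam1 was the most abundant of them by mean, with 12.2, 10.9 and 4.86 FPKM, and Pdgfra had no read in tumor 3. The part of acinar and stromal cells in the levels of Jdp2, Fosl2 and Atf3 was not tested.

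Tumor 1, with the highest Jun and Jund, also had the highest macrophage markers, 5 of 6 against 50.6% of the 11197 genes, with sums of 267, 90.0 and 33.5 FPKM in tumors 1, 2 and 3. Lyz2 was the most abundant, with 215, 33.1 and 20.3 FPKM, and all 6 had reads in every tumor. Cd68 was the exception, highest in tumor 2. The neutrophil list summed to 37.8, 1.44 and 15.7 FPKM, with S100a9 as its most abundant gene at 22.6, 1.01 and 10.4 FPKM. Elane had no read in any tumor, and Ly6g and Mpo 1 read in tumor 1 and none in the others. Their part in the levels of Jun and Jund was not tested.

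Tumor 3, with the highest Fos and Fosb, had the highest value for 5 of 6 B-cell markers, against 15.7% of the 11197 genes, and their sums were 59.6, 14.0 and 106 FPKM. Cd79a was the most abundant, with 23.1, 7.31 and 49.0 FPKM, and none was without reads in any tumor. The dendritic cell list, to which Batf3 is linked in biology, summed to 11.1, 6.92 and 4.03 FPKM, with Itgax as the most abundant gene at 3.18, 1.47 and 0.762 FPKM and reads for all 6 markers in every tumor. Like Batf3, 5 of these 6 were lowest in tumor 3 on the deposited scale, against 37.4% of the 11197 genes. The part of B cells in Fos and Fosb and of dendritic cells in Batf3 was not tested.

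**Figure D5:**
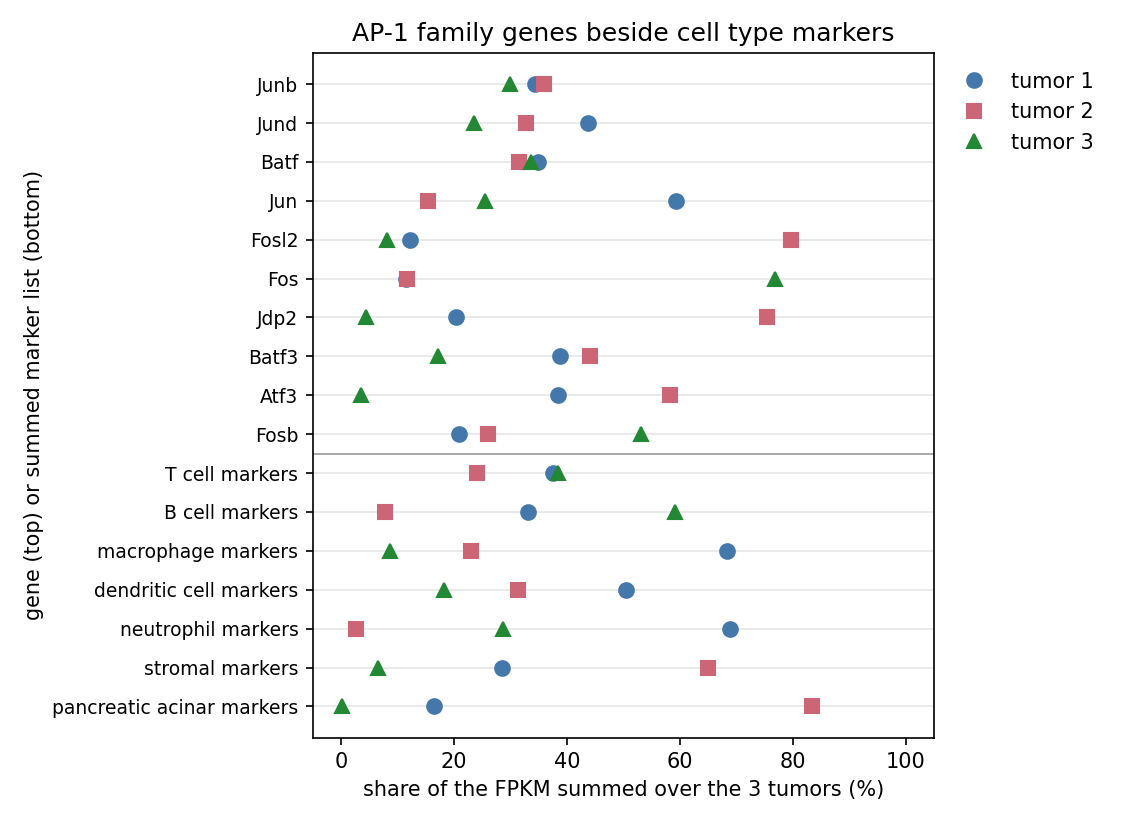
Share of each tumor in the FPKM summed over the 3 tumors (percent) for each gene (top) and for the summed marker lists (bottom). Tumor 2 holds 79.6% of Fosl2, 64.9% of the stromal and 83.4% of the acinar sum, and tumor 3 holds 76.9% of Fos and 59.1% of the B-cell sum.

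Among 12 other basic leucine zipper genes, 10 had a mean of at least 1 FPKM, and 5 of these had a highest tumor at least 2 times the lowest, with a median ratio of 2.03, against 34.4% and a median of 1.68 over all 11197 genes. Atf4, Nfe2l2 and Ddit3 were the most abundant. Atf4, the main effector of the integrated stress response, had 30.8, 47.5 and 30.6 FPKM in tumors 1, 2 and 3, and Nfe2l2, the regulator of antioxidant genes, 15.6, 11.6 and 12.0. Ddit3, which encodes the stress factor CHOP, had 4.84, 23.7 and 9.86 FPKM and the largest ratio, 4.88. It shared its highest tumor with Jdp2, Fosl2 and Atf3, but its lowest was tumor 1. Bach2, a repressor that competes for AP-1 sites in T cells, was lowest in tumor 2, with 3.97, 1.09 and 2.15 FPKM.

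Of 17 genes of the MAP kinases that activate AP-1 and of their targets with a mean of at least 1 FPKM, 4 had a ratio of at least 2, with a median of 1.45, against 34.4% and 1.68 over all 11197 genes. Map4k1, a kinase of blood cells, and Elk4, a partner of serum response factor, were among the most abundant, with 22.8, 23.8 and 17.9 FPKM and with 19.1, 19.7 and 14.3 FPKM. Map3k5, a stress kinase upstream of JNK, had the order of Jun, with 10.5, 2.17 and 2.89 FPKM, and Mapk3, which encodes ERK1, the order of Jdp2, with 9.10, 13.9 and 6.02 FPKM.

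Of the 11 feedback genes of this pathway, 5 had a mean of at least 1 FPKM. Of these 5, 2 had a ratio of at least 2, against 34.4% of the 11197 genes. Dusp5, a nuclear ERK phosphatase, had the order of Fosl2, with 13.6, 25.0 and 9.68 FPKM, and Dusp10, a JNK and p38 phosphatase, that of Jun, with 9.69, 2.70 and 7.42 FPKM. Dusp2 had 10.3, 6.92 and 6.78 FPKM.

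Of 17 other immediate early genes, tumor 1 was the highest for 10, tumor 2 for 4 and tumor 3, the highest of Fos, for 3. Over the 11197 genes these shares were 50.6%, 33.7% and 15.7%, so the list lies near all genes. Of the 12 with a mean of at least 1 FPKM, 6 had a ratio of at least 2, against 34.4% of the 11197. The median ratio of the 12 was 1.99, against 1.68. Ier3, an early gene of survival signalling, was 1 of those 3, with 7.86, 4.19 and 15.0 FPKM, and Btg2, an antiproliferative gene, another, with 38.7, 41.0 and 56.8 FPKM. Myc had 55.2, 38.0 and 30.4 FPKM and Klf2, a gene of quiescent T cells, 48.6, 12.7 and 41.7 FPKM. Zfp36, which encodes an mRNA decay factor and was named after its values were seen, was the other one highest in tumor 3, with 17.0, 12.8 and 23.5 FPKM.

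The factors that bind beside AP-1 were all above 0.2 FPKM in every tumor, 8 of 8, as were 97.5% of the 11197 genes with a mean of at least 1 FPKM. Of the 8, 4 had a ratio of at least 2, against 34.4% of these genes. Irf4, the partner of BATF, had 3.57, 0.312 and 3.25 FPKM, so that tumor 2 had little Irf4 with an even level of Batf. All 6 B-cell markers were also lowest in tumor 2, against 38.3% of these genes. The part of B cells in the level of Irf4 was not tested. Ets1 had 65.1, 44.2 and 60.0 FPKM, Runx3, a CD8 lineage factor, 13.9, 36.9 and 18.5, and Nfatc1 8.34, 13.4 and 12.2.

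Of T-cell genes with known AP-1 sites, 12 had a mean of at least 1 FPKM. Of these, 9 had a ratio of at least 2, against 34.4% of the 11197 genes, and the median was 5.93, against 1.68. Il4 reached a mean of 1 FPKM only through tumor 1, and Timp1, named after its values were seen, only through tumor 2. Timp1 had 0.403, 2.67 and 0.0542 FPKM, and both genes are among the 9. Of the 12, tumor 1 was the highest for 5, tumor 2 for 6 and tumor 3 for 1, against 50.6%, 33.7% and 15.7% of the 11197. Gzmb, the cytotoxic protease, had 463, 702 and 134 FPKM, and Fasl, a death ligand, 8.08, 53.4 and 15.1 FPKM, both highest in tumor 2 like Jdp2 and Fosl2. Vim had 122, 74.3 and 79.3 FPKM. Il2ra had 43.2, 9.98 and 1.96 FPKM, and Il4 3.50, 0.0387 and 0.0785 FPKM, with no read in tumor 2. Both were highest in tumor 1 like Jun.

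Cofactors of JDP2 and genes of the p53 pathway linked to it had a ratio of at least 2 in 2 of 7 cases. Their median was 1.72, and count and median lie near the 34.4% and 1.68 of the 11197 genes. Cdkn1b, a cell cycle inhibitor, had 32.7, 19.0 and 27.2 FPKM, Trp53 29.4, 22.2 and 26.4, and Ccna2, a cyclin gene, 18.8, 8.65 and 6.69. Cdkn2a, the locus of p16 and ARF, was nearly absent in the tumor with the most Jdp2, with 7.22, 0.0900 and 9.08 FPKM and 2 reads in tumor 2. In the integrated stress response list, tumor 2 was the highest for 4 of 9 genes, tumor 3 for 3 and tumor 1 for 2, against 33.7%, 15.7% and 50.6% of the 11197 genes. Of the 5 with a mean of at least 1 FPKM, 3 had a ratio of at least 2, against 34.4% of the 11197. Among the 3 was Ddit4, an inhibitor of mTORC1, with 24.5, 117 and 74.6 FPKM.

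The genes nearest to Jdp2 in profile, by Euclidean distance of centred log2 FPKM over the 3 tumors among 11189 other genes, were Hip1, Gm9888, Gm20532, Ptms and Nid1. Hip1, a clathrin adaptor gene, had 1.62, 4.64 and 0.308 FPKM at a distance of 0.27, and Ptms, the parathymosin gene, 9.09, 41.9 and 2.62 FPKM at 0.30. Of the family, Fosl2 was the nearest with a mean of at least 1 FPKM, at rank 103 and a distance of 1.14, and Fos was at rank 10975. Nearest to Fos were Gm38804, Zfp296, Armcx2, Phlda3 and Klk8. Gm38804 had 0.382, 0.481 and 3.08 FPKM at a distance of 0.23, and Phlda3, a p53 target, 1.80, 1.28 and 6.67 FPKM at 0.61. Within a distance of 0.5 lay 14 genes for Jdp2 and 2 for Fos. Over 3 tumors such likeness is a description of these libraries.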

How the data were processed

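RNA-seq of 3 Dnmt3b+/- PTCL was analysed. The authors aligned reads of 150 bp to mm10 with STAR, kept those with a mapping quality of at least 50, and deposited FPKM per gene from SeqMonk, on a linear scale. The members and lists were chosen with earlier results of these data known. A gene with no read is listed at the value of 0.9 read, which gave depths of 30726570, 18969988 and 20770928 reads in tumors 1, 2 and 3. Reads were recovered with GENCODE M21 exon lengths within each gene's bounds, available for 99.6% of genes, and 94.4% of values in tumor 1 were whole to within 0.02 read, as were those of all 10 members.

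No count model was used, since the values are FPKM. Intervals are exact Poisson intervals on recovered reads and, for ratios, exact conditional binomial intervals, at 95%, and cover counting error only. Ratios used a floor of 3 reads. Of 2 Junb entries the one with the higher mean was used. Named were all 10 members, the 3 highest and the 2 most variable genes of each list, the 5 nearest profiles of Jdp2 and Fos, genes between neighbours, and marker genes. The value of 1 gene that this rule names is not reported here. Alternatives were rescaling each tumor to a total of 1000000, median-of-ratios factors, thresholds of 1.5 and 3, pseudocounts of 0.1 and 1, other gene filters, and each tumor left out. Scaling to the summed Cd3d, Cd3e and Cd3g FPKM was added after seeing the data. The steps were tested on simulated Poisson counts, built with the same exon lengths, depths and value of 0.9 read. Such data cannot show whether these settings hold for the deposited values. Computations ran in Python 3.11.15 with SciPy 1.17.1, NumPy 2.4.6 and pandas 2.3.3, and figures in matplotlib 3.10.9.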

Additional observations from a re-analysis of the deposited data

How the results depend on the processing

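With a single group of 3 tumors nothing was tested, and each value describes these libraries. The count of members with a highest tumor at least 2 times the lowest was 7, against 34.4% of the 11197 genes with a mean of at least 1 FPKM. Shares of all genes in this section are over these genes unless another filter is named. It was 8 with rescaling to 1000000 (39.4% of all genes), 7 with median-of-ratios factors (32.4%), 7 with Cd3 scaling, chosen after seeing the data (49.4%), 8 and 5 with thresholds of 1.5 and 3 (62.7% and 16.4%), and 6 and 4 with pseudocounts of 0.1 and 1 (33.1% and 23.6%). It ran from 3 to 6 with a tumor left out, lowest without tumor 3. The count at least 2 times the next was 5, against 12.8% of all genes, 3 with a threshold of 3 (6.05%), and 4 to 6 under the other settings, where the share of all genes ran from 8.84% to 30.3%. The share of all genes past the fold was 45.0% among genes above 0.2 FPKM in at least 1 tumor and 24.5% over every gene. Jdp2 as a percent of the Jun family ran from 0.752 to 3.40 with a tumor left out. Of 50 ratios recomputed for single members, 13 left their counting interval, and the highest tumor changed in 4, for Junb, Batf and Batf3. The count of members with the order tumor 2, 1, 3 was 5, and 4, 5 and 3 with rescaling to 1000000, median-of-ratios factors and Cd3 scaling, against 16.9%, 19.7%, 14.7% and 16.4% of all genes; these 3 were added after seeing the data. With Cd3 scaling the ratio of Jund was 2.57 and that of Fosb 1.91. No paired analysis was possible because no groups were compared. Depth limits the genes with few reads, such as Atf3, Jdp2 and Batf3 in tumor 3, with 3, 11 and 17 reads, and Fosb throughout.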
